A study of Mus musculus with 6 samples.

Results

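The 10 genes described here handle zinc in pancreatic islets: 7 zinc exporters of the ZnT family (Slc30a1, Slc30a4, Slc30a5, Slc30a6, Slc30a7, Slc30a8 and Slc30a9), the importer gene Slc39a14, and the metallothionein genes Mt1 and Mt2. They were taken by name from a table of 54532 genes, in which each name occurred once. Messenger RNA was sequenced from islets of mice aged 7 weeks in 2 groups of 3 samples. The first, labelled Wtap-βKO, is by its name a knockout of Wtap in the insulin-producing β cells. The second, Wtap flox/flox, has Wtap flanked by recombination sites. Each sample pooled islets from 3 mice, and the replicates are described as biologically independent. The Cre driver and the deleted exons are not named in the labels, nor is the sex of the mice.

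WTAP helps the m6A methyltransferase, which places N6-methyladenosine (m6A) on messenger RNA, and the study is about its role in β-cell function. β cells hold an unusual amount of zinc, because insulin is stored in secretory granules as crystals built around zinc ions. ZnT proteins move zinc out of the cytosol, into organelles or out of the cell, whereas ZIP proteins, encoded by Slc39 genes, bring it into the cytosol. Metallothioneins are small cysteine-rich proteins that bind zinc and other metals, and their genes are induced by metal through the transcription factor MTF1.

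Expression was deposited as FPKM, fragments per kilobase of gene length scaled to sequencing depth, on between 16353297 and 18682745 recovered reads per sample. Differences were tested with limma on log2(FPKM + 1) over the 15927 genes with a mean of at least 0.5 FPKM, with Benjamini-Hochberg adjustment over all of them, and a gene is said to have risen or fallen where the adjusted p was under 0.05. Wtap itself measured 11.2, 11.9 and 12.3 FPKM in the islets labelled Wtap-βKO, against 10.5, 11.4 and 11.6 FPKM in Wtap flox/flox islets. The groups overlapped and the gene-level message was not lower under the knockout label (log2 fold change 0.07, adjusted p = 0.475 by limma), so directions are those of the libraries as labelled. The value sums all exons and all islet cell types, so it may not see a deletion of part of the gene in one cell type. All 10 β-cell markers looked up were present in both groups, with summed levels of 81600 to 92200 FPKM under the label Wtap-βKO and 135000 to 155000 FPKM in Wtap flox/flox islets. Of these markers 8 fell. Of 10 α-cell markers 5 rose, with sums of 33900 to 44800 FPKM against 21400 to 25600 FPKM. Sums also stood higher without overlap for markers of δ and PP cells (18500 to 34700 FPKM against 15700 to 17600 FPKM; 3 of 7 tested rose), mesenchymal cells (94.8 to 109 FPKM against 63.3 to 73.9 FPKM; 6 of 9 rose) and macrophages (244 to 301 FPKM against 209 to 233 FPKM; 1 of 8 rose). In the δ and PP sum the largest gene, Ppy, overlapped between the groups (adjusted p = 0.455 by limma), while Sst rose. The lymphoid and plasma-cell sum (66.7 to 76.7 FPKM against 12.5 to 16.0 FPKM) was carried by the immunoglobulin genes Igkc and Igha. With Jchain these were the 3 of 5 tested that rose, while the B-cell marker Cd79a fell and Ms4a1, Cd3e and Cd3g were at or near 0. Acinar, ductal and endothelial sums overlapped between the groups, with 2 of 10, 1 of 7 and 2 of 9 tested markers risen and none fallen.

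Of the 10 members, 9 passed the filter on low values, and 1 rose while 2 fell. Slc30a1 rose, Slc30a8 and Slc30a5 fell, 6 members did not pass the test, and Mt2 was too low to be tested. Over all genes tested 8.77% rose and 11.3% fell, so 1 and 2 calls among 9 tested members are not read as a property of the members. Their median log2 fold change of 0.04 stood beside -0.01 over all genes. The split of all calls depended on scaling: 43.7% of called genes were higher, against 53.8% after rescaling without the 50 highest genes and 68.1% when scaled to total recovered reads. In 4 of the 9 tested members the groups did not overlap, a pattern seen in 41.3% of all genes tested. Slc30a8 differed by far the most of the called members, at 1.91-fold lower against 1.56-fold higher for Slc30a1 and 1.19-fold lower for Slc30a5.

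**Figure D1:**
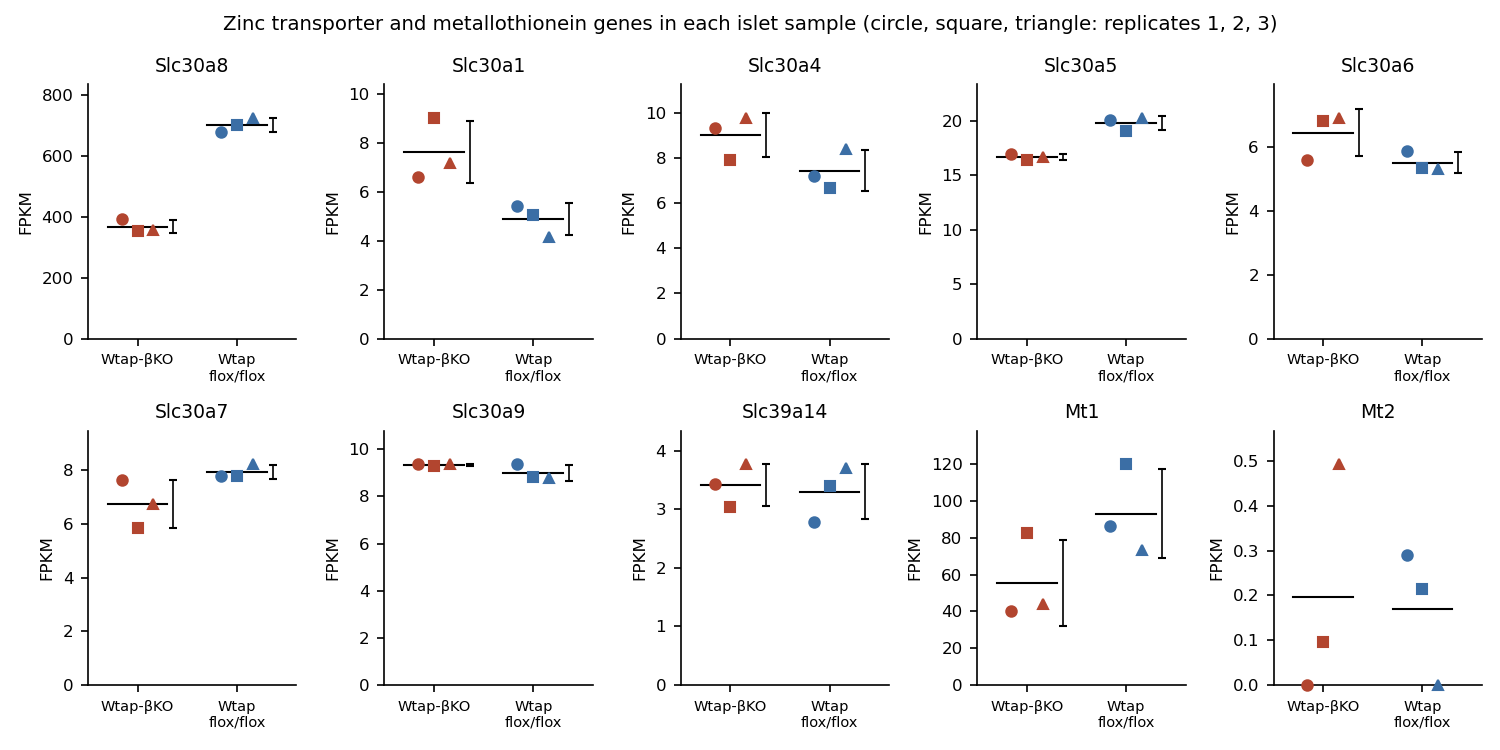
FPKM of the 10 members in each of the 6 islet samples, on linear axes from 0. Points are samples (circle, square and triangle for replicates 1, 2 and 3), horizontal lines are group means, and error bars are SD over 3 samples, left out for Mt2. The 3 Slc30a8 values labelled Wtap-βKO lie between 354 and 391, all under the Wtap flox/flox values of 678 to 725.

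Slc30a8 encodes ZnT8, the transporter that loads zinc into insulin granules and that is also found in α cells. The gene (ENSMUSG00000022315) lies on chromosome 15 from 52295553 to 52335798 on the plus strand (GRCm38), and none of its 1971 exonic bases is shared with another annotated gene. It measured 391, 354 and 356 FPKM in replicates 1 to 3 labelled Wtap-βKO, against 678, 702 and 725 FPKM in replicates 1 to 3 of Wtap flox/flox. The 2 groups were far apart compared with the spread within each, at 367 ± 20.7 FPKM and 702 ± 23.3 FPKM (SD, n = 3 each). The log2 fold change was -0.93 (SE 0.0709, 95% interval -1.10 to -0.77, adjusted p = 0.000551 by limma). These values rest on 12097 to 14532 reads per sample labelled Wtap-βKO and 21861 to 25416 reads per Wtap flox/flox sample. The call held in all 18 alternative analyses, with adjusted p from 5.47e-07 to 0.00703.

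The fall of Slc30a8 went with a lower level of insulin message. Ins1 and Ins2, the insulin genes, together measured 69512, 77538 and 73495 FPKM under the label Wtap-βKO, against 120491, 138033 and 138406 FPKM in Wtap flox/flox islets. Ins1 fell (log2 fold change -1.36, adjusted p = 0.00869 by limma). Ins2, the larger part of the sum, was lower without overlap but did not pass the test (log2 fold change -0.65, adjusted p = 0.19 by limma). Per 1000 FPKM of the insulin genes, Slc30a8 came to 5.63, 4.57 and 4.84 FPKM under the label Wtap-βKO and 5.63, 5.09 and 5.24 FPKM in Wtap flox/flox islets. This ratio overlapped between the groups (5.01 ± 0.548 and 5.32 ± 0.279, SD, n = 3 each; two-sided exact permutation test, p = 0.4, where 3 against 3 samples cannot give a p under 0.1). The mean difference of -0.304 became -2.93 under quantile normalization, which evens out the highest values of each sample (exact p = 0.1). Among the 10 β-cell markers the median log2 fold change was -1.20, while Iapp, the gene of the granule peptide amylin, named after its values were seen, had 11301, 13873 and 13703 FPKM under the label Wtap-βKO and 12021, 13434 and 14045 FPKM in Wtap flox/flox islets. In bulk islets, fewer β cells and less message per β cell cannot be told apart, and the part of the α-cell markers in the Slc30a8 value was not tested.

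Summed, the other ZnT genes overlapped between the groups. The Slc30 genes other than Slc30a8, 9 in the table, summed to 55.6, 55.3 and 56.8 FPKM under the label Wtap-βKO and 55.8, 52.8 and 55.2 FPKM in Wtap flox/flox islets. The share of Slc30a8 in the family's summed FPKM was 87.6%, 86.5% and 86.2% under the label Wtap-βKO, against 92.4%, 93.0% and 92.9% in Wtap flox/flox islets. The shares did not overlap, with a difference of -6.01 percentage points (two-sided exact permutation test, p = 0.1, the smallest that this design allows).

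**Figure D2:**
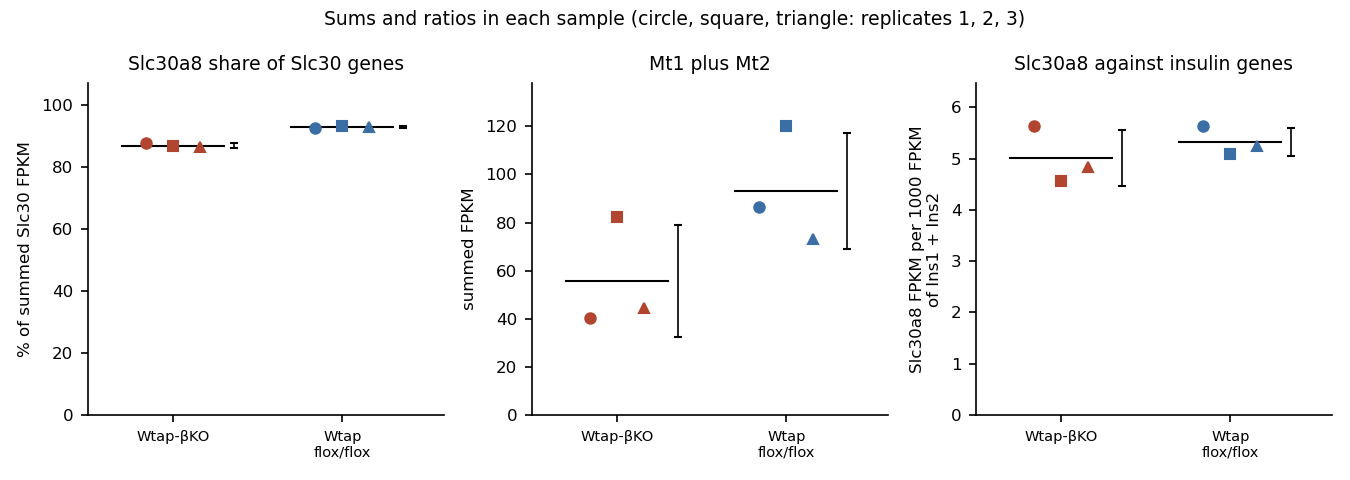
Slc30a8 as a percentage of the summed FPKM of all Slc30 genes, Mt1 plus Mt2 summed in FPKM, and Slc30a8 per 1000 FPKM of Ins1 plus Ins2, in each of the 6 samples. Points are samples, horizontal lines are means and bars are SD (n = 3). The Slc30a8 share is 86.2% to 87.6% under the label Wtap-βKO and 92.4% to 93.0% in Wtap flox/flox islets, whereas the other 2 measures overlap between the groups. The sum of Mt1 and Mt2 is nearly all Mt1, and the Mt2 level is uncertain.

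The sequence around the m6A consensus was read in the member transcripts, since WTAP belongs to the m6A writer. GGACT, in RNA one of the commonest forms of the sequence that the complex methylates, was searched on the sense strand of 1 principal transcript per gene from GENCODE M21. Slc30a8 held it once in 1971 bases, within the coding sequence, at base 1431 of the transcript, and the copy is shown with 8 bases on each side and the motif in capitals.

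Slc30a8 GGACT context: gaccctcaGGACTagctcggt

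The density of 0.507 per 1000 bases in Slc30a8 compared with a median of 1.05 over 12692 protein-coding genes tested, and 18.2% of these genes were at or below it. Slc30a5 held 4 copies, all in the coding sequence, and Slc30a1 held 6, of which 2 were coding and 4 in the 3′ UTR. Slc30a9, which did not pass the test, held 7. Per 1000 bases these came to 1.26 for Slc30a5, 1.14 for Slc30a1 and 1.23 for Slc30a9. Of the protein-coding genes tested, 62.3%, 55.8% and 60.6% were at or below these densities. At least 1 copy was present in 91.7% of the 12692 genes, and a match describes the letters alone, not a methylated site.

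Slc30a1 encodes ZnT1, the exporter of the plasma membrane, whose gene is induced by zinc through MTF1. Its plus-strand locus spans 191906767 to 191913247 of chromosome 1. It measured 6.61, 9.05 and 7.21 FPKM in the islets labelled Wtap-βKO, against 5.42, 5.07 and 4.16 FPKM in Wtap flox/flox islets. Every sample labelled Wtap-βKO was above every Wtap flox/flox sample, and replicate 2 was the highest of its group. Slc30a1 rose 1.56-fold (log2 fold change 0.55, SE 0.129, 95% interval 0.24 to 0.85, adjusted p = 0.0267 by limma). The call did not hold when low genes were kept in the fit (adjusted p = 0.063), without replicate 3 labelled Wtap-βKO (0.063) and without Wtap flox/flox replicate 2 (0.0681) or 3 (0.0787), and over 18 alternatives its adjusted p ran from 0.00316 to 0.0787. Of its exonic bases 8.92% lie under the antisense gene 1700034H15Rik, which measured 0.249 to 0.661 FPKM, and the library protocol does not mark strand. The marker sums of α, δ and PP, mesenchymal and macrophage cells and the immunoglobulin levels given above were higher in the same libraries. Their part in the rise of Slc30a1 was not tested.

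Slc30a5, Slc30a6 and Slc30a7 encode transporters of the early secretory pathway and Golgi, where ZnT5 pairs with ZnT6 and both ZnT5 and ZnT7 supply zinc to enzymes made there. Slc30a5 measured 17.0, 16.4 and 16.7 FPKM under the label Wtap-βKO, against 20.1, 19.1 and 20.3 FPKM in Wtap flox/flox islets. The difference was small but larger than the spread, with no overlap, and Slc30a5 fell 1.19-fold (log2 fold change -0.23, SE 0.0521, 95% interval -0.36 to -0.11, adjusted p = 0.0227 by limma). This call depended on scaling and on single libraries. It was lost under quantile normalization (adjusted p = 0.06), after rescaling without the 50 highest genes (0.0584), with scaling to total recovered reads (0.156), and after leaving out replicate 3 labelled Wtap-βKO (0.0723) or Wtap flox/flox replicate 1 (0.0852) or 3 (0.0817), over a range of 0.0127 to 0.156 in 18 alternatives.

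Slc30a6, the partner gene of Slc30a5, measured 5.61, 6.82 and 6.93 FPKM under the label Wtap-βKO and 5.89, 5.35 and 5.32 FPKM in Wtap flox/flox islets. The groups overlapped through replicate 1 labelled Wtap-βKO, and the gene did not pass the test (log2 fold change 0.19, 95% interval -0.02 to 0.40, adjusted p = 0.187 by limma). Slc30a7 measured 7.62, 5.86 and 6.73 FPKM under the label Wtap-βKO, against 7.77, 7.78 and 8.22 FPKM in Wtap flox/flox islets. Its groups did not overlap, yet replicate 1 labelled Wtap-βKO came close to the Wtap flox/flox values and the test was not passed (log2 fold change -0.21, 95% interval -0.43 to 0.00, adjusted p = 0.15 by limma). Of the exonic bases of Slc30a7, 16.0% lie under the opposite-strand pseudogenes Gm43106 and Gm6649, both listed at 0 FPKM in every sample. The paired genes Slc30a5 and Slc30a6 thus had log2 fold changes of opposite sign, of which the negative one of Slc30a5 alone passed the test, and the difference between the 2 genes was not tested.

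Slc30a4 encodes ZnT4, a transporter of endosomal and other vesicles, and it measured 9.33, 7.92 and 9.80 FPKM under the label Wtap-βKO and 7.23, 6.66 and 8.43 FPKM in Wtap flox/flox islets. Replicate 3 of Wtap flox/flox, at 8.43, lay above replicate 2 labelled Wtap-βKO, and the gene did not pass the test (log2 fold change 0.25, adjusted p = 0.147 by limma). Of the exonic bases of Slc30a4, 2.37% lie under 4930417H01Rik on the opposite strand, at 0.0596 to 0.151 FPKM. Slc30a9 encodes ZnT9, a transporter of mitochondria, and had the narrowest spread of the tested members under the label Wtap-βKO, with 9.37, 9.29 and 9.37 FPKM, against 9.37, 8.83 and 8.79 FPKM in Wtap flox/flox islets. Its 95% interval of -0.08 to 0.18 on the log2 scale bounds the difference narrowly (log2 fold change 0.05, adjusted p = 0.564 by limma). Slc39a14 encodes ZIP14, an importer of zinc, iron and manganese, and measured 3.43, 3.04 and 3.77 FPKM under the label Wtap-βKO and 2.79, 3.40 and 3.71 FPKM in Wtap flox/flox islets. The groups overlapped almost wholly (log2 fold change 0.04, 95% interval -0.22 to 0.30, adjusted p = 0.832 by limma).

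Mt1 had the highest FPKM of the metallothionein genes, though the Mt2 level is uncertain, as given below. The Mt1 gene lies on chromosome 8 from 94179082 to 94180327 on the plus strand. It measured 40.2, 82.4 and 43.8 FPKM in replicates 1 to 3 labelled Wtap-βKO, against 86.3, 120 and 73.1 FPKM in replicates 1 to 3 of Wtap flox/flox. Replicate 2 was the highest sample of each group, and the groups overlapped because the 82.4 of replicate 2 labelled Wtap-βKO exceeded the 73.1 of Wtap flox/flox replicate 3. The group means were 55.5 ± 23.4 FPKM and 93.2 ± 24.2 FPKM (SD, n = 3 each), and Mt1 did not pass the test (log2 fold change -0.78, SE 0.294, 95% interval -1.48 to -0.09, adjusted p = 0.108 by limma). The call depended on the fit and on single libraries: without replicate 2 labelled Wtap-βKO the log2 fold change was -1.10 and the adjusted p = 0.0157, and limma voom on the recovered reads of all 6 samples also called it lower (adjusted p = 0.0186). Over 18 alternatives the adjusted p ran from 0.0157 to 0.268, and 3 of them called it. Mt1 plus Mt2 came to 40.2, 82.5 and 44.3 FPKM under the label Wtap-βKO and 86.6, 120 and 73.1 FPKM in Wtap flox/flox islets. These sums also overlapped (two-sided exact permutation test, p = 0.2, with 0.1 the smallest possible). Mt2 added 0 to 5 reads a sample and its level is uncertain, so the sum nearly repeats the Mt1 values.

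Glucocorticoids also induce metallothioneins, and replicate 2 labelled Wtap-βKO stood apart in some of the genes they induce. Fkbp5, a chaperone of the glucocorticoid receptor, measured 8.66, 27.1 and 8.35 FPKM in replicates 1 to 3 labelled Wtap-βKO, against 9.60, 9.16 and 10.5 FPKM in Wtap flox/flox islets. Zbtb16, a transcription factor gene, measured 0.241, 3.39 and 0.307 FPKM under the label Wtap-βKO and 0.184, 0.156 and 0.287 FPKM in Wtap flox/flox islets. The high value lay in one library in both genes. Within the list of 10, replicate 2 was also the highest under the label Wtap-βKO for Cdkn1a (8.7, 14.6 and 8.36 FPKM). So it was for Sgk1 (10.3, 13.4 and 11.0 FPKM), Per1 (19.8, 23.4 and 17.4 FPKM) and Nfkbia (29.2, 39.4 and 29.3 FPKM). In contrast, replicate 2 was the lowest under this label for Dusp1 (31.4, 24.1 and 39.5 FPKM). Nor was it the highest for Klf9 (34.9, 29.9 and 28.7 FPKM) or Errfi1 (38.3, 32.7 and 31.0 FPKM). Outside the list, replicate 2 was also high for the islet hormone genes Ppy (9428, 19590 and 8761 FPKM) and Pyy (3435, 6789 and 4036 FPKM). Of the list, Errfi1 and Sgk1 rose and Dusp1 fell, against 8.77% and 11.3% of all genes tested, and these calls were lost in 4, 8 and 11 of 18 alternatives. The summed list overlapped between the groups, at 180 to 217 FPKM under the label Wtap-βKO and 187 to 212 FPKM in Wtap flox/flox islets. Tsc22d3, which glucocorticoids also induce, measured 6.77, 9.41 and 6.14 FPKM under the label Wtap-βKO and 8.15, 9.36 and 6.98 FPKM in Wtap flox/flox islets, so that replicate 2 was highest in both groups, as for Mt1. The genes of this paragraph were named after their values were seen. Their part in the Mt1 values was not tested.

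Mt2 lies next to Mt1 on the same strand of chromosome 8, from 94172664 to 94173568, and is usually induced together with it. Here it gave 0, 1 and 5 reads in replicates 1 to 3 labelled Wtap-βKO and 3, 2 and 0 reads in replicates 1 to 3 of Wtap flox/flox, while Mt1 gave 941 to 1839 reads and 1621 to 2363 reads. These Mt2 counts lie around a floor of 3 reads in every library, so no fold change is given. Of the 588 exonic bases of Mt2, 432 (73.5%) lie under the single exon of Gm45774, an antisense gene on the opposite strand, and 156 do not. Gm45774 measured 0.422 to 1.07 FPKM over the 6 samples. Without strand, reads from Mt2 and Gm45774 in the shared bases cannot be told apart, and no source used here says how the counting treated them, so the Mt2 level is uncertain.

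**Figure D3:**
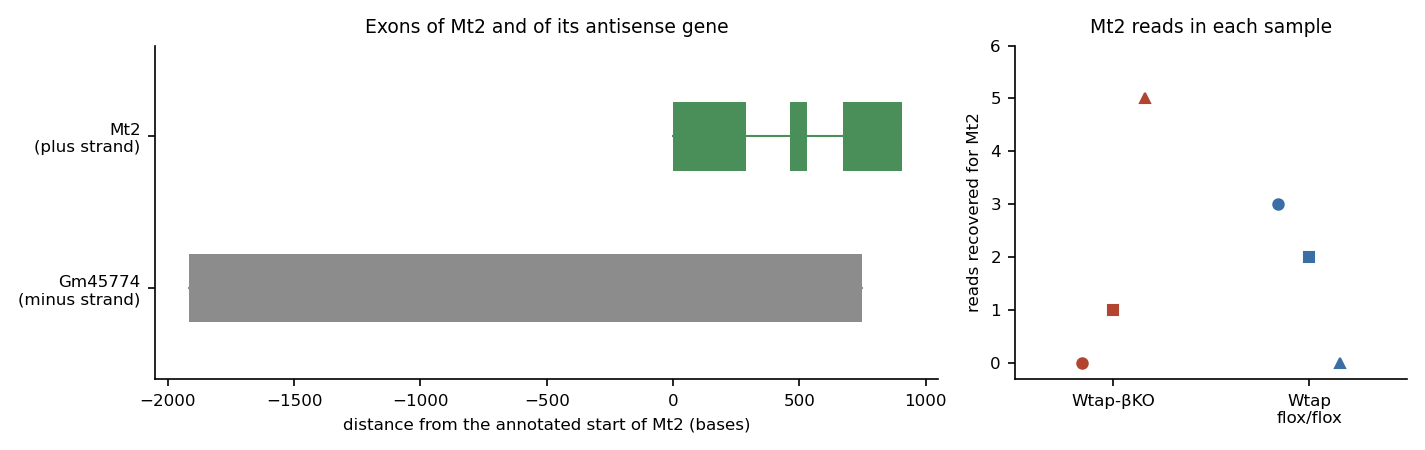
Left, exons of Mt2 and of the antisense gene Gm45774 by distance in bases from the annotated start of Mt2, to scale. Right, reads recovered for Mt2 in each of the 6 samples, between 0 and 5, with circle, square and triangle for replicates 1, 2 and 3. The single Gm45774 exon covers 432 of the 588 exonic bases of Mt2.

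Promoter windows are shown for Mt1, Mt2 and Slc30a1, the classical MTF1 targets of the mouse among the members. They were chosen because Slc30a1 rose while the log2 fold change of Mt1 was negative and not called. Each window runs from 250 bases before to 50 bases after the RefSeq start (GRCm38.p6, plus strand, 5′ to 3′). Capitals mark matches to the core of the metal response element, searched as TGCACNC and TGCGCNC on both strands, none of which overlap in these windows. The windows are chr8:94178839-94179138 for Mt1, chr8:94172368-94172667 for Mt2 and chr1:191906531-191906830 for Slc30a1.

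Mt1: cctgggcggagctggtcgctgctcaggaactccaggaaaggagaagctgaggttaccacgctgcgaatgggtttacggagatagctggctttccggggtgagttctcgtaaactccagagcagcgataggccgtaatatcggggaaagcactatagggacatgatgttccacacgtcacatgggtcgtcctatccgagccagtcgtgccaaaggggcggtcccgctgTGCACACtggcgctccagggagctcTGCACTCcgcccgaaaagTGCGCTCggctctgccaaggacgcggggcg

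Mt2: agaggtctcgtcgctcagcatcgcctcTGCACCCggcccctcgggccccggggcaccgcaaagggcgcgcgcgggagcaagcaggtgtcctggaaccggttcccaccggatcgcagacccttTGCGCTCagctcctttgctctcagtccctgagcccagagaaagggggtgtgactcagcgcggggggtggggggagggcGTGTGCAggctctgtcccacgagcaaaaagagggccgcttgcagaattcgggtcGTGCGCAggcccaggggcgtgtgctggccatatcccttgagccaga

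Slc30a1: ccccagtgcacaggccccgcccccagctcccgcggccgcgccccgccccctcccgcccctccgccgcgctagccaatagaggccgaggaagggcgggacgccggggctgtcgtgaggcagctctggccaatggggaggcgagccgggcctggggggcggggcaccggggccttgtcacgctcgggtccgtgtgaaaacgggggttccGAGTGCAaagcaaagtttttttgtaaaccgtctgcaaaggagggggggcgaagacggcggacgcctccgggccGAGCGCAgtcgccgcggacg

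Bases outside the windows were not searched, so the counts do not cover whole promoters. The Mt2 window ends at 94172667, near the GENCODE M21 start of Mt2 at 94172664. Mt1 held 3 matches in its window, all on the plus strand, of which 1 lies shortly before the RefSeq start used and 2 after it. Mt2 held 4 and Slc30a1 held 2, and both of those of Slc30a1 were on the minus strand. Promoter windows were matched for 8 of the 10 members, all but Slc30a8 and Slc39a14. Slc30a4 held 3 matches, Slc30a5 held 1, and Slc30a6, Slc30a7 and Slc30a9 held 0. Of all 32851 windows of this length, 25.7% held at least 1 match and 1.97% at least 3. Mtf1, the gene of the factor itself, measured 6.42, 5.47 and 6.39 FPKM under the label Wtap-βKO and 6.01, 6.79 and 6.27 FPKM in Wtap flox/flox islets, with no call (log2 fold change -0.05, adjusted p = 0.678 by limma).

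The order of levels among the members was led by the same 4 genes in both groups. Slc30a8 came first, followed by Mt1, Slc30a5 and Slc30a9, at 367, 55.5, 16.7 and 9.34 FPKM under the label Wtap-βKO and 702, 93.2, 19.8 and 8.99 FPKM in Wtap flox/flox islets. Below them, Slc30a4, Slc30a1, Slc30a7 and Slc30a6 followed in that order under the label Wtap-βKO, at 9.01, 7.62, 6.74 and 6.46 FPKM, and from Slc30a9 down each overlapped with the next. In Wtap flox/flox islets the order was Slc30a7, Slc30a4, Slc30a6 and Slc30a1, at 7.92, 7.44, 5.52 and 4.88 FPKM, where Slc30a7 overlapped with Slc30a4 and Slc30a6 with Slc30a1. Slc39a14 and Mt2 came last in both groups, with the Mt2 level uncertain. FPKM divides by the summed exons of a gene, 1246 bases for Mt1 against 549 in its principal transcript and 12374 for Slc30a9 against 5711, so levels between genes also depend on that length.

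Other genes of zinc handling were followed in 4 lists of 24 genes, of which 16 passed the filter on low values, 1 rose and 1 fell, with a median log2 fold change of -0.05. These counts are near the 8.77% and 11.3% of all genes tested. Slc39a11, which encodes a ZIP importer of the Golgi and other membranes, measured 10.8, 10.4 and 11.0 FPKM under the label Wtap-βKO, against 7.93, 6.54 and 7.75 FPKM in Wtap flox/flox islets, and rose 1.45-fold (adjusted p = 0.00806 by limma). Tmem163, which encodes a vesicle membrane protein that exports zinc, measured 13.7, 15.3 and 14.4 FPKM under the label Wtap-βKO, against 22.1, 20.2 and 23.4 FPKM in Wtap flox/flox islets, and fell 1.51-fold (adjusted p = 0.00338 by limma). Neither gene's groups overlapped, and both calls held in all 18 alternatives. Slc39a7, an importer gene of the endoplasmic reticulum, measured 4.81 ± 0.58 FPKM under the label Wtap-βKO and 6.41 ± 0.676 FPKM in Wtap flox/flox islets (SD, n = 3 each) and came just short of the threshold (adjusted p = 0.0529 by limma).

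The remaining ZnT genes were at the bottom of the table. Slc30a2, Slc30a3 and Slc30a10 summed to between 0 and 0.0614 FPKM in the samples labelled Wtap-βKO and 0 in every Wtap flox/flox sample. Mt4, a metallothionein of squamous epithelia, was listed at 0 in all 6 samples, and Mt3, the brain-enriched metallothionein, measured 2.84, 1.57 and 2.45 FPKM under the label Wtap-βKO and 1.87, 1.48 and 1.85 FPKM in Wtap flox/flox islets. Of 13 ZIP genes other than Slc39a14, 9 were tested, and the summed level of all 13 was 91.2 to 95.4 FPKM under the label Wtap-βKO and 93.4 to 99.8 FPKM in Wtap flox/flox islets.

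**Figure D4:**
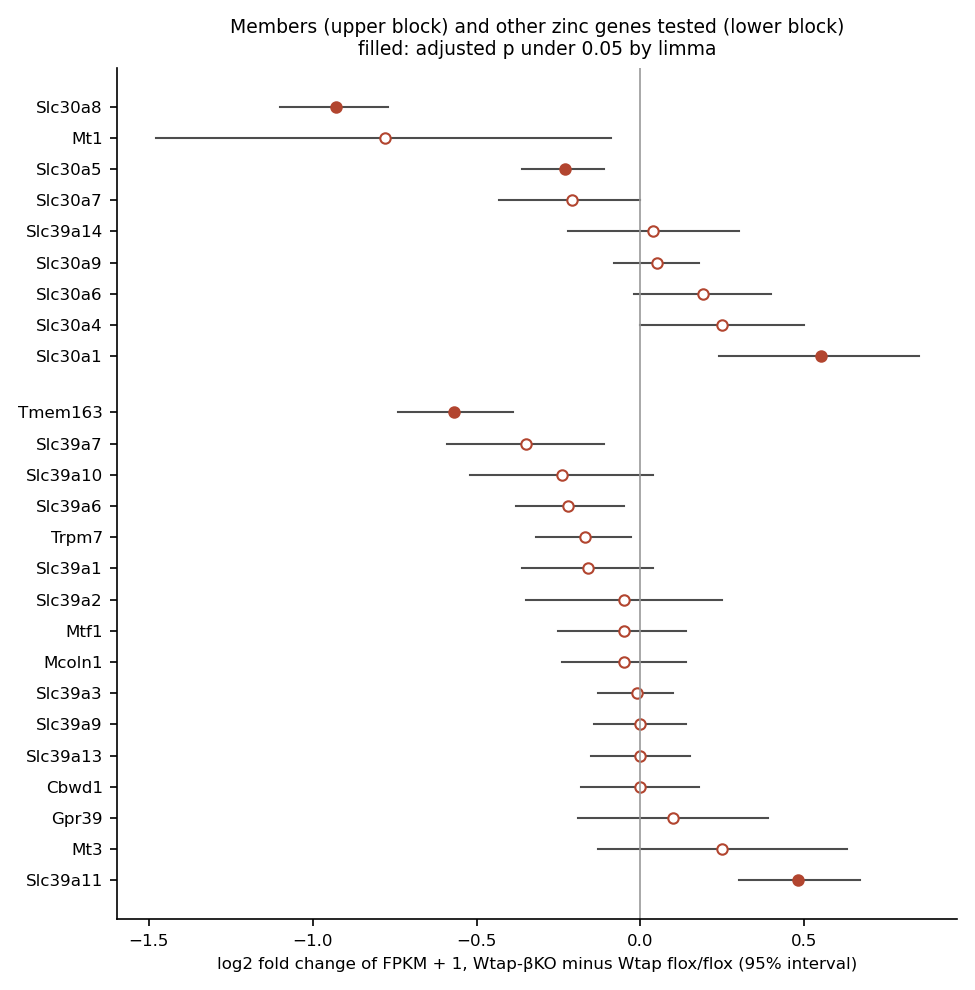
Log2 fold change of FPKM + 1, Wtap-βKO minus Wtap flox/flox, with 95% intervals from limma, for the 9 members tested (upper block) and 16 other zinc genes (lower block). Filled points had an adjusted p under 0.05, which were Slc30a8, Slc30a5 and Slc30a1 among the members and Tmem163 and Slc39a11 among the others.

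Genes whose profile lay closest to a member were found by the root mean square difference of log2(FPKM + 1), each gene set relative to its own Wtap flox/flox mean, over the 6 samples and 7333 genes with a mean of at least 5 FPKM. Closest to Slc30a8 were Atm, a DNA damage kinase gene, Pclo, a scaffold gene of exocytosis sites, and Chrm3, a muscarinic receptor gene, at 0.0528, 0.0561 and 0.0582 on the log2 scale. The added 1 FPKM understates the change of low genes, so these distances depend on it. By mean FPKM, Atm was 2.0-fold, Pclo 1.99-fold and Chrm3 2.23-fold lower under the label Wtap-βKO, against 1.91-fold for Slc30a8. Exon sharing with other annotated genes was counted for the members only. Where antisense exons overlap these neighbours, reads cannot be told apart without strand. Atm, for example, averaged 4.55 ± 0.4 FPKM under the label Wtap-βKO and 9.12 ± 0.446 FPKM in Wtap flox/flox islets (SD, n = 3 each). Closest to Mt1 were Gipr, an incretin receptor gene, Slc37a4, a glucose 6-phosphate transporter gene, and Rims3, an active-zone gene, at 0.195, 0.202 and 0.208. The Mt1 neighbours share its high value in replicate 2 labelled Wtap-βKO, which follows from the rule that picked them. Gipr, for example, measured 37.5, 51.8 and 33.0 FPKM under that label, against 70.5, 80.1 and 61.7 FPKM in Wtap flox/flox islets.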

How the data were processed

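Poly-A RNA of pooled islets was made into libraries by a protocol without a strand-marking step and read from both ends on an Illumina instrument, per the labels' protocols. The authors deposited 1 table of FPKM values with a gene length in bases, per the file headers. Tools named in the submitters' processing notes, without roles, are HISAT2 2.0.5 and featureCounts 1.5.0-p3, besides CASAVA and DESeq2 1.20.0, and the builds GRCm38 and mm10. FPKM times length gave whole reads, within 0.01 read, for 100.0% of values above 0. The implied library sizes were 1.04 to 1.07 times the summed reads in the samples labelled Wtap-βKO and 0.952 to 0.988 times in Wtap flox/flox samples, so the rescaling before deposit differed between the groups.

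FPKM as deposited were fitted as log2(FPKM + 1), which understates the change of low genes, using the trended empirical Bayes fit of limma 3.58.1 (R 4.3.3) and two-sided tests. Folds are ratios of mean FPKM, and SE is that moderated by limma. The p-values measure the spread between these pooled samples, and read floors cover counting error only. Alternatives were other scalings, pseudocounts and filters, no or a robust variance trend, limma voom on recovered reads with the implied library sizes, a replicate block, and leaving out each sample.

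Named by rule were all members, every called gene of the zinc and metal lists, and the 3 nearest profiles to Slc30a8 and Mt1, leaving out predicted genes and pseudogenes. Some other genes of the lists, such as Slc39a7 and Mtf1, were named besides these. Members and lists were chosen with earlier results of these data known. Of the table's genes, 54409 were found in GENCODE M21, and sequences came from GENCODE and RefSeq GRCm38.p6. Figures were drawn with matplotlib 3.10.9.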

Additional observations from a re-analysis of the deposited data

How the results depend on the processing

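Slc30a8 fell in every alternative, with log2 fold changes from -1.12 to -0.82. Members called lower came to 1 in place of 2 under quantile normalization, after rescaling without the 50 highest genes and when scaled to total recovered reads, where Slc30a5 was lost. Members called higher came to 0 by limma without a filter on low values, while voom called 1 and an unadjusted p under 0.05 was met by 1. Leaving out 1 sample at a time gave 0 to 1 members higher and 1 to 3 lower, and in the fits that called 0 higher, 1 or 2 were higher at an unadjusted p under 0.05. Over all genes these fits gave 782 to 1380 higher and 1027 to 1853 lower, fewer samples entering each. They gave 830 higher and 1149 lower without replicate 3 labelled Wtap-βKO, and 804 and 1033, 782 and 1027, and 866 and 1046 without Wtap flox/flox replicate 1, 2 and 3. Scaling to total recovered reads gave 2335 higher and 1094 lower. Slc39a14, never called, ranged from -0.05 to 0.11 when 1 sample was left out, turning to -0.02 without replicate 3 labelled Wtap-βKO and -0.05 without Wtap flox/flox replicate 1.

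Leave-one-out differences ran from -6.41 to -5.75 percentage points for the Slc30a8 share, from -51.1 to -24.2 FPKM for Mt1 plus Mt2, and from -0.61 to -0.0829 for Slc30a8 per 1000 FPKM of insulin genes. With the replicate number as a block, 1148 genes were higher and 1490 lower, members came to 1 higher and 3 lower, and Mt1 was called lower (adjusted p = 0.0195). Deviations of same-numbered samples correlated at 0.0185 to 0.0377, under the 0.1 set for pairing, although all 6 samples correlated best with their own number, so the numbers are not treated as pairs. A minimum mean of 5 FPKM gave no value for Slc39a14 or Mt2. Mt2 rested on 0 to 5 reads a sample, and why so few were counted was not tested. The cause of these changes was not tested.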

Other observations

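Of 17 tested genes of copper, iron and magnesium handling, 2 rose and 1 fell, near the 8.77% and 11.3% of all genes tested, with a median log2 fold change of -0.04. Atp7a, which encodes a copper pump of the Golgi, measured 5.44, 3.79 and 4.66 FPKM in the islets labelled Wtap-βKO, against 8.24, 8.97 and 7.75 FPKM in Wtap flox/flox islets, and fell 1.80-fold (adjusted p = 0.00688 by limma), a call kept in all 18 alternatives. Cp, the gene of the copper-carrying ferroxidase ceruloplasmin, measured 0.998, 1.49 and 1.27 FPKM under the label Wtap-βKO, against 0.579, 0.463 and 0.646 FPKM in Wtap flox/flox islets, and rose 2.23-fold (adjusted p = 0.0309 by limma, and up to 0.0916 in alternatives). Slc25a28, an iron carrier gene of mitochondria, rose 1.22-fold at the edge of the threshold (adjusted p = 0.0499 by limma, and from 0.0126 to 0.147 in alternatives).

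The ferritin genes showed the same sample apart as Mt1. Ftl1, the light chain, measured 187, 292 and 203 FPKM in replicates 1 to 3 labelled Wtap-βKO, against 299, 326 and 300 FPKM in Wtap flox/flox islets. Fth1, the heavy chain, measured 300, 440 and 350 FPKM under the label Wtap-βKO and 305, 318 and 299 FPKM in Wtap flox/flox islets. Replicate 2 was the highest sample labelled Wtap-βKO for both chains, and neither passed the test (adjusted p = 0.0863 for Ftl1 and 0.288 for Fth1 by limma). Both were named after their values were seen.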
